A study of Mus musculus with 2 samples.

Results

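The 10 genes described here handle lipids in macrophages: Apoe, Lpl, Fabp5, Trem2, Gpnmb, Spp1, Cd36, Abca1, Abcg1 and Plin2. They were taken by symbol from the 31253 genes listed in both count matrices, and all 10 were found. The set was selected on the ratios of ibudilast to PBS seen earlier in these libraries, lower for Lpl and higher for Gpnmb and Fabp5, so the values below describe the libraries and carry no test. The cells are CD45+ cells from intracranial gliomas grown in C57BL/6 mice from GL261, a mouse glioma line. 1 library came from mice that received PBS by gavage (its label reads untreated), and 1 from mice that received ibudilast, an inhibitor of phosphodiesterases and of the cytokine MIF, at 20 mg/kg, 5 times a week for 2 weeks. The age, sex and number of mice behind each library are not given in the sources used here. With 1 library per treatment there is no replicate check: every ratio compares 2 libraries, and effects of treatment, of mouse and of preparation cannot be told apart.

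Macrophages take up lipid from lipoproteins and dead cells, burn it, store it in droplets or pass it on to lipoproteins outside the cell. Lipoprotein lipase (Lpl) is secreted and frees fatty acids from triglyceride-rich lipoproteins. CD36 takes up fatty acids and oxidised lipoproteins, FABP5 carries fatty acids inside the cell, and perilipin 2 (Plin2) coats lipid droplets. ABCA1 and ABCG1 export cholesterol, and apolipoprotein E accepts it. TREM2 is a lipid-sensing receptor on microglia and macrophages, while the membrane glycoprotein GPNMB and the secreted protein osteopontin (Spp1) are hallmark products of lipid-laden, or foamy, macrophages. In brain disease and in tumours, macrophages and microglia with high Trem2, Gpnmb, Fabp5, Spp1 and Lpl are often described together.

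The PBS library held 8968 barcodes with 119113794 UMIs (unique molecular identifiers, each counting 1 RNA molecule), and the ibudilast library 8483 barcodes with 82196922 UMIs. After filtering, 8155 and 7079 cells remained, with medians of 12234 and 8267 UMIs. The limit on mitochondrial RNA removed 8.01% and 14.2% of barcodes, and 19 barcode sequences occurred in both libraries. Cells were sorted into gates by marker genes, none of them one of the 10. The 3504 PBS and 1401 ibudilast macrophages carry markers such as C1q genes, Ms4a7, Pf4 and Adgre1, and were split by their leading markers into 6 states: Arg1/Mmp12, Gdf15/Hmox1, cycling, Cxcl9/Cxcl10, class II-high and class II-low. Further gates held 706 and 795 monocytes in transition, with both monocyte and macrophage markers, 612 and 820 early monocytes, and 187 and 39 microglia. Microglia needed at least 4 microglia marker UMIs, so cells under that limit stayed in the macrophage states. Sparc, which no gate used, was also higher in the microglia gate, at 303 CPM (UMIs per 1000000 UMIs of the gate) in PBS and 435 in ibudilast microglia against 17.8 and 20.6 in macrophages. Traces of other cells differed between the libraries within the macrophages: the summed level of red cell markers was 5.97 CPM in PBS and 58.4 in ibudilast, of T cell markers 83.8 and 146, and of monocyte markers 418 and 709. Their part in the results below was not tested.

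In all macrophages together, Lpl and Cd36 were lower and Gpnmb and Fabp5 higher in the ibudilast library, and the other 6 genes lay between 0.8-fold and its inverse. Lpl was at 179 CPM in PBS (10572 UMIs) and 87.2 CPM in ibudilast (1635 UMIs), a ratio of 0.488 with a 95% counting interval of 0.463 to 0.514. Cd36 was at 30.7 and 19.7 CPM (ratio 0.642, interval 0.572 to 0.718). The lipase and the fatty acid receptor thus stood on the same side.

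Gpnmb was at 96.8 CPM in PBS (5724 UMIs) and 177 CPM in ibudilast (3310 UMIs), a ratio of 1.82 with an interval of 1.75 to 1.90. Fabp5 was at 333 and 523 CPM (ratio 1.57, interval 1.53 to 1.61). The ratios were 1.14 for Trem2, 1.14 for Abca1, 1.12 for Spp1, 1.06 for Apoe, 1.04 for Plin2 and 0.997 for Abcg1. Among all 10809 genes with at least 100 UMIs, 9.18% lay above the inverse of 0.8-fold, called the upper fold here, and 3.95% under 0.8-fold, against 2 and 2 of the 10 genes. In numbers of genes that was 992 above and 427 under, and with TMM scaling, which centres the bulk of genes, 766 above and 630 under, with the members at 2 and 2 again. The median log2 ratio was 0.12 over the 10 genes and 0.03 over all genes tested. Since the set was chosen with these differences known, nothing is read from the comparison of the shares. The intervals here cover counting error alone, and are too narrow for genes whose UMIs sit in few cells.

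**Figure D1:**
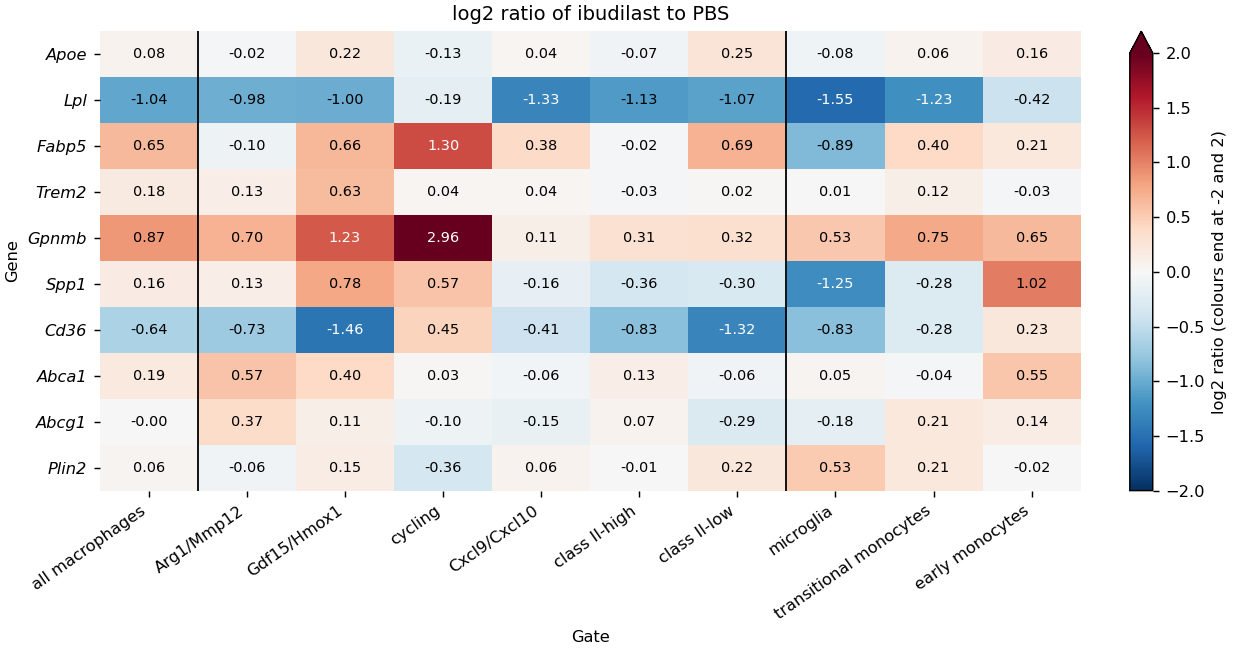
Log2 ratio of ibudilast to PBS for the 10 genes (rows) in all macrophages, the 6 macrophage states, microglia and the 2 monocyte gates (columns), blue where lower and red where higher in ibudilast. The Lpl row is below 0 in every column, from -1.55 in microglia to -0.19 in cycling macrophages, and the Gpnmb row above 0 in every column, while ratios of Fabp5, Spp1 and Plin2 in microglia and of Fabp5, Gpnmb and Spp1 in cycling macrophages rest on few cells and moved with the random draw that set the gates.

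Lpl, on mouse chromosome 8 (68880491 to 68907448, plus strand, GRCm38), was lower in ibudilast in each macrophage state. In the PBS library its level was highest in Arg1/Mmp12 macrophages (360 CPM). It then ran from Gdf15/Hmox1 (207) through class II-low (194), microglia (188), Cxcl9/Cxcl10 (167) and cycling (159) to class II-high macrophages (154), and the counting intervals of neighbours in that stretch overlapped. Monocytes in transition followed at 66.5 CPM and early monocytes at 28.4 CPM, the latter against 12.4 CPM in T and NK cells, which serve as a measure of free RNA.

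In the ibudilast library Arg1/Mmp12 macrophages were again highest for Lpl, at 182 CPM (ratio 0.507, interval 0.426 to 0.600). The ratio was 0.501 in Gdf15/Hmox1, 0.475 in class II-low, 0.455 in class II-high and 0.399 in Cxcl9/Cxcl10 macrophages. Cycling macrophages differed least, with 159 and 139 CPM (ratio 0.874, interval 0.760 to 1.004). The gates were read from a random draw of 2000 UMIs per cell, and over 10 such draws the cycling ratio ranged from 0.794 to 1.10 (and was 0.548 without the 5 cells of each library with most Lpl UMIs), while each of the other 5 states stayed between 0.244 and 0.645.

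Microglia held 188 CPM of Lpl in PBS and 64.1 CPM in ibudilast (ratio 0.340, interval 0.232 to 0.484, 33 UMIs in ibudilast), with draws from 0.330 to 0.603 and a ratio of 0.110 without the 5 highest cells of each library. Monocytes in transition had a ratio of 0.426 (0.362 to 0.501) and early monocytes of 0.746 (0.586 to 0.949, draws up to 0.823). So 8 of the 9 gates of macrophages, microglia and monocytes lay under 0.8-fold for Lpl, with cycling macrophages as the exception. The share of all tested genes under 0.8-fold in these gates ran from 6.52% in monocytes in transition to 17.6% in microglia. T and NK cells also held less, 12.4 and 6.84 CPM (ratio 0.551), and with that level subtracted the macrophage ratio was 0.483.

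**Figure D2:**
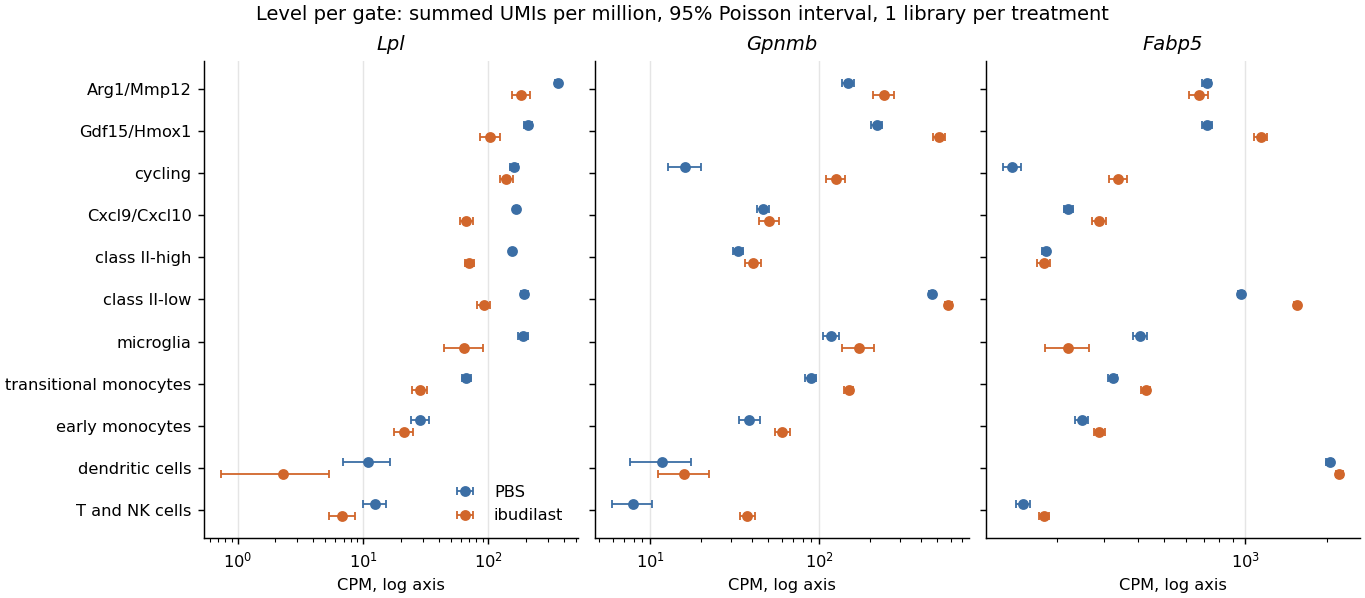
Levels of Lpl, Gpnmb and Fabp5 (CPM, log axis) in 11 gates of the PBS (blue) and ibudilast (orange) library, with 95% Poisson intervals for counting error. Lpl is lower in ibudilast in every gate drawn, and Gpnmb and Fabp5 have their highest macrophage levels in class II-low and Gdf15/Hmox1 cells except Fabp5 in PBS, where Arg1/Mmp12 macrophages are level with Gdf15/Hmox1 ones.

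The share of macrophages with an Lpl UMI was lower as well. Each cell was thinned to 2000 UMIs so that depth could not set the share of positive cells: 20.7% of PBS and 9.99% of ibudilast macrophages then had an Lpl UMI (intervals 19.4 to 22.1% and 8.47 to 11.7%). Without thinning the shares were 57.2% and 32.9%. T and NK cells, as a measure of free RNA, were at 3.39% and 1.31% with thinning, at median depths of 7544.5 and 6845 UMIs, against 15575.5 and 11467 UMIs in macrophages. Among PBS macrophages 0.257% held at least 6 Lpl UMIs per 2000, and among ibudilast macrophages 0 of 1401, which allows a share of up to 0.214%. Leaving out the 5 cells with most Lpl UMIs in each library gave a ratio of 0.458.

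The promoters of 2 genes are shown because their genes stand for the results: Gpnmb for the genes higher in ibudilast, and Abca1 for the cholesterol exporters, which the sterol-sensing receptor LXR controls. The RefSeq promoter table (GRCm38.p6) held 7 of the 10 genes, without Lpl, Fabp5 and Abcg1. The 250 bases before the transcript start are printed 5′ to 3′ on the gene's strand, for Gpnmb chr6:49036268-49036517 (plus strand) and for Abca1 chr4:53159896-53160145 (minus strand), with motif matches in capitals.
Gpnmb: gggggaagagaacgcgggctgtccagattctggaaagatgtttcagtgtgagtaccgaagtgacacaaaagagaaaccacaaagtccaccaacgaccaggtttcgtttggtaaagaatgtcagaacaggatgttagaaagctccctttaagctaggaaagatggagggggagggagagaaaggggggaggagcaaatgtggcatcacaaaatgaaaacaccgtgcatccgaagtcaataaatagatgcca
Abca1: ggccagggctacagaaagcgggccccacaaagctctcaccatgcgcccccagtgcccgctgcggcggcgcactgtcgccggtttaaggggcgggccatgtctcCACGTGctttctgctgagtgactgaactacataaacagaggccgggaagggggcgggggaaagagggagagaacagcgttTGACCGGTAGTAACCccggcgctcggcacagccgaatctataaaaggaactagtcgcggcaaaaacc
Searched on both strands were the E-box CACGTG, the M-box TCATGTG, the AP-1 motif TGANTCA, and pairs of the half-site GGTNA in the same direction, 5 bases apart for an LXR repeat and 2 bases apart for a PPAR repeat. No 2 of the matches found overlap. The capitals in Abca1 mark an E-box, which 6.02% of all 32851 promoters hold, and an LXR repeat on the opposite strand, which 0.621% hold. Gpnmb had no match in this window, and among the other 5 genes only Trem2 had one, to AP-1 (6.75% of promoters). These are letter matches, and the data hold no measure of binding.

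Gpnmb, on chromosome 6 (49036546 to 49070929, plus strand), was unevenly spread in both libraries. In PBS it was highest in class II-low macrophages (464 CPM), followed by Gdf15/Hmox1 (218), Arg1/Mmp12 (149) and microglia (118). Class II-high macrophages held 33.0 CPM and cycling ones 16.1 CPM. Class II-low macrophages made up 12.8% of the PBS macrophages and carried 48.5% of their Gpnmb UMIs.

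The difference of Gpnmb between the libraries varied more by state than that of Lpl. In Gdf15/Hmox1 macrophages it was at 218 and 511 CPM (ratio 2.34, the lowest of 10 draws, which reached 7.59). In Arg1/Mmp12 macrophages the ratio was 1.62 (draws 1.06 to 1.76). In class II-low macrophages, where the gene is most abundant, the levels were 464 and 580 CPM, a ratio of 1.251 (interval 1.18 to 1.33) that was the highest of the draws, the lowest being 0.863.

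In class II-high and Cxcl9/Cxcl10 macrophages Gpnmb had ratios of 1.24 and 1.08 (draws 0.892 to 1.45 and 0.923 to 2.20). The ratio of 7.78 in cycling macrophages came from 5 of the 95 ibudilast cells, which held 90.3% of its UMIs there, and was 1.39 without the 5 highest cells of each library. Monocytes in transition were at 89 and 150 CPM (ratio 1.68, draws 1.47 to 1.88), and early monocytes at 38.7 and 60.7 CPM (draws 0.94 to 1.57). Microglia were at 118 and 171 CPM (88 UMIs in ibudilast), and at a ratio of 0.662 without the 5 highest cells of each library.

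Gpnmb UMIs sat in few cells. The 10% of macrophages with most of them held 92.5% of all Gpnmb UMIs in PBS and 86.0% in ibudilast, against 50.2% and 62.8% for Lpl. With cells thinned to 2000 UMIs, 8.30% of PBS and 13.3% of ibudilast macrophages had a Gpnmb UMI, and 0.656% and 2.50% had 6 or more. T and NK cells, which should lack the gene, were at 7.90 CPM in PBS and 37.7 CPM in ibudilast, where 5 of 1148 barcodes held 47.8% of the UMIs. Thinned, 1.90% and 2.35% of T and NK cells had a Gpnmb UMI. Subtracting their level from that of the macrophages gave a ratio of 1.56 in place of 1.82.

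**Figure D3:**
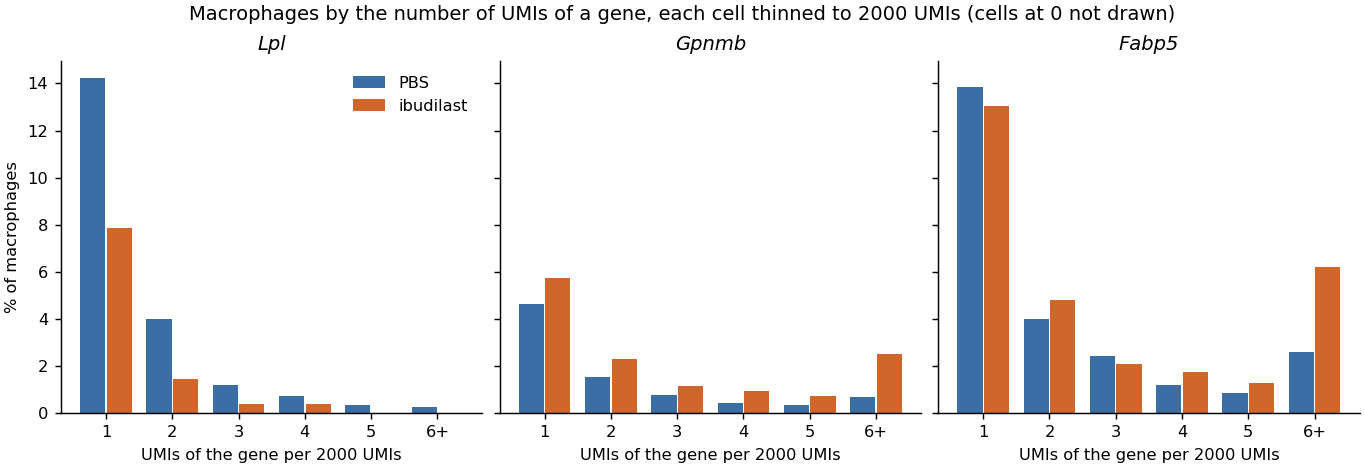
Share of macrophages (percent) with 1 to 5 or at least 6 UMIs of Lpl, Gpnmb or Fabp5, after each cell was thinned to 2000 UMIs, in the PBS (blue) and ibudilast (orange) library. Lpl bars are shorter in ibudilast at each number of UMIs, while for Fabp5 the share at 6 or more is 2.60% in PBS and 6.21% in ibudilast and the share at 1 is 13.8% and 13.1%.

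Fabp5, on chromosome 3 (10012548 to 10016607, plus strand), had the same 3 leading macrophage states as Gpnmb in PBS. In PBS macrophages it was highest in class II-low cells (961 CPM), then Gdf15/Hmox1 (721) and Arg1/Mmp12 (719), and lowest in class II-high (182) and cycling cells (136). Transcripts of 3 pseudogenes share stretches of at least 90 bases at 95% identity or more with it, and none of them is listed in the matrices, so UMIs read from such stretches are uncertain.

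In ibudilast, class II-low macrophages held 1555 CPM of Fabp5 (ratio 1.62, draws 1.16 to 1.62) and Gdf15/Hmox1 macrophages 1139 CPM (ratio 1.58, draws up to 3.65). Arg1/Mmp12 and class II-high macrophages had ratios of 0.933 and 0.983, with draws on both sides of 1. Cxcl9/Cxcl10 macrophages were at 221 and 287 CPM (ratio 1.30, draws 1.17 to 1.82, and 1.01 without the 5 highest cells of each library). The cycling ratio of 2.47 was 0.952 without the 5 highest cells of each library. Monocytes in transition were at 323 and 426 CPM (ratio 1.32, draws 1.11 to 1.34) and early monocytes at 248 and 287 CPM (ratio 1.16, draws 1.07 to 1.26). Microglia were at 406 and 219 CPM, with draws from 0.540 to 2.14, so no direction is given.

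The share of macrophages with a Fabp5 UMI among 2000 was 24.9% in PBS and 29.1% in ibudilast, with T and NK cells at 14.5% and 15.5%. The upper end moved more than the share: 2.60% of PBS and 6.21% of ibudilast macrophages held 6 or more UMIs. The top 1% of macrophages held 23.4% and 27.2% of all Fabp5 UMIs. Without the 5 highest cells of each library the ratio was 1.43.

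Fabp5 and Gpnmb were often found in the same cells. Among thinned macrophages with a Gpnmb UMI, 67.7% in PBS and 70.4% in ibudilast also had a Fabp5 UMI, against 21% and 22.8% of those without Gpnmb. An Lpl UMI was found in 28.9% of PBS macrophages with Gpnmb and in 20.0% of those without. In ibudilast the shares were 11.3% (interval 7.13 to 16.7%) and 9.79% (8.18 to 11.6%). These intervals cover counting error over the cells of 1 library. As a description across cells of 1 library, Spearman's rho of thinned UMIs was 0.34 in PBS and 0.43 in ibudilast for Fabp5 with Gpnmb, and 0.06 and 0.02 for Lpl with Gpnmb.

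The macrophages differed in their state proportions between the libraries. Class II-low cells were 12.8% of macrophages in PBS and 21.6% in ibudilast (intervals 11.7 to 13.9% and 19.4 to 23.8%), and class II-high cells 44.8% and 37.3%. Arg1/Mmp12 cells, the state with most Lpl, were 6.36% and 4.35%. Gdf15/Hmox1 cells were 6.68% and 7.71%, cycling cells 5.62% and 6.78%, and Cxcl9/Cxcl10 cells 23.7% and 22.3%. Macrophages as a whole were 44.9% of cells with at least 2000 UMIs in PBS and 21.7% in ibudilast. Cells with macrophage and also T, NK or other lineage markers were not counted among them. In no gate at all were 1758 of 7799 PBS and 1937 of 6470 ibudilast cells, and their part in the macrophage shares was not tested.

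The states were also weighted in both libraries as in PBS. Whether each state held the same mix of cells in both libraries was not tested. In clusters of cells made without the genes described here, the class II-low cells differed in mix between the libraries. Ratios within a state, and those weighted by state, can thus compare unlike cells. For Lpl the ratio stayed at 0.487, and the shift of state proportions alone, at PBS levels, gave 0.986. For Cd36 the same figures were 0.641 and 1.01. For Gpnmb they were 1.501 and 1.248, and for Fabp5 1.34 and 1.11. The shift of proportions alone gave 0.986 to 1.248 over these 4 genes.

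Weights on a finer scale moved Gpnmb and Fabp5 further. Macrophages were divided by their UMIs of MHC class II genes (H2-Aa, H2-Ab1, H2-Eb1 and Cd74, which present antigen) per 2000, in 6 bins chosen after the data were seen. The lowest bin, 0 to 19 UMIs, held 5.76% of PBS and 11.1% of ibudilast macrophages. Gpnmb was at 887 and 1186 CPM in that bin and at 17.6 and 17.9 CPM in the bin of 120 or more. Fabp5 was at 1628 and 2710 CPM in the lowest bin and at 129 and 122 CPM in the highest.

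Trem2 and Spp1 were also lower at higher class II: Trem2 went from 1082 CPM in the lowest to 195 CPM in the highest bin of PBS, and Spp1 from 4591 to 105 CPM. Lpl varied less along the scale, from 262 to 140 CPM in PBS and from 134 to 68.4 CPM in ibudilast. Its ratio lay between 0.403 and 0.541 in all 6 bins. That of Gpnmb lay between 0.881 and 1.48, and that of Fabp5 between 0.897 and 1.66.

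With the bins weighted as in PBS, the ratio was 0.470 for Lpl and 0.647 for Cd36, near the values as measured. It was 1.23 for Gpnmb and 1.16 for Fabp5, both under the upper fold, and 0.793 for Spp1. The bin proportions alone, at PBS levels, gave 1.47 for Gpnmb and 1.28 for Fabp5 but 1.03 for Lpl. Summed class II level itself was lower in ibudilast macrophages, at 43236 CPM against 48238 CPM in PBS, so the bins are not the same cells in both libraries.

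**Figure D4:**
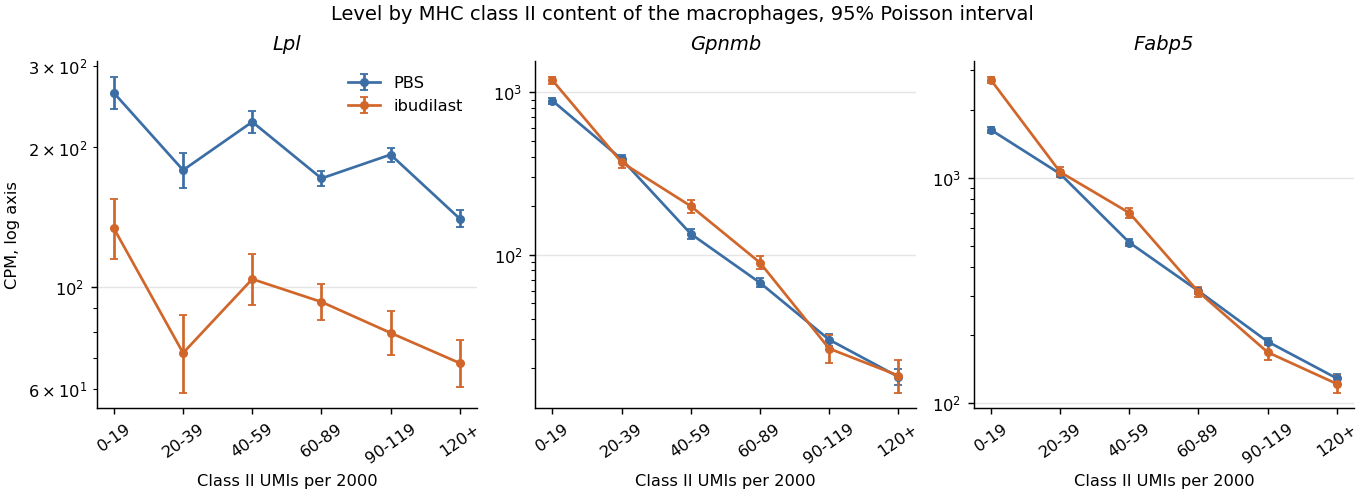
Levels of Lpl, Gpnmb and Fabp5 (CPM, log axis) in macrophages binned by class II UMIs per 2000, in the PBS (blue) and ibudilast (orange) library, with 95% Poisson intervals. The Lpl lines run apart over all 6 bins, whereas those of Gpnmb and Fabp5 drop steeply with class II. The latter lie close together at 20 to 39 UMIs and from 60 UMIs on, except for Gpnmb at 60 to 89 UMIs (67.0 and 89.2 CPM).

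**Figure D5:**
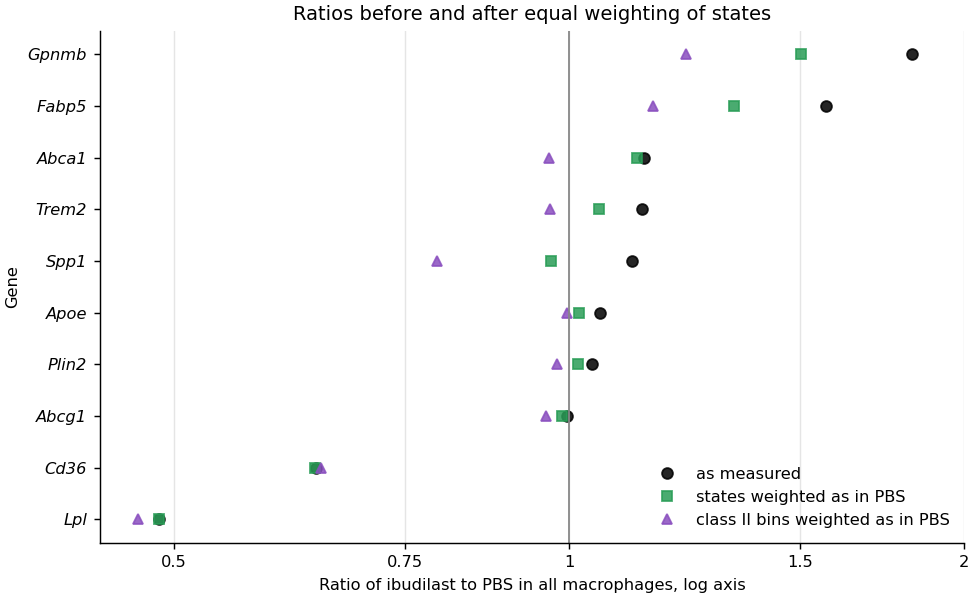
Ratio of ibudilast to PBS in all macrophages (log axis) for the 10 genes as measured (circles), with the 6 states weighted as in PBS (squares) and with the 6 class II bins weighted as in PBS (triangles). The 3 marks of Lpl and Cd36 stay together, at 0.470 to 0.488 and 0.641 to 0.647, and those of Gpnmb, Fabp5 and Spp1 spread toward lower ratios.

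Among macrophages and monocytes in transition, Lpl was lower in cells with more monocyte markers in both libraries. Binned by monocyte marker UMIs per 2000 (Ly6c2, Plac8 and others), Lpl was at 200 CPM in PBS cells with none and at 19.5 CPM in those with 20 or more. In ibudilast the values were 107 and 26.3 CPM. Its ratio lay between 0.352 and 0.587 in the 6 bins below 20 UMIs. In the bin of 20 or more it was 1.35, on 20 and 31 UMIs. Gpnmb was at 104 CPM with no monocyte UMI and at 111 CPM with 20 or more in PBS, and at 205 and 109 CPM in ibudilast. Its ratio was 1.98 in the first of these bins and 0.977 in the last.

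Cd36, on chromosome 5 (17781690 to 17888801, minus strand), was the other gene lower in ibudilast. Its ratio was 0.605 in Arg1/Mmp12, 0.362 in Gdf15/Hmox1, 0.401 in class II-low, 0.561 in class II-high and 0.752 in Cxcl9/Cxcl10 macrophages. The Arg1/Mmp12 and Gdf15/Hmox1 values rested on 27 and 12 ibudilast UMIs. Their draws ran from 0.504 to 0.868 and from 0.328 to 0.870, and those of Cxcl9/Cxcl10 reached 0.815. Cycling macrophages went the other way, with 28.6 and 39 CPM (ratio 1.36, interval 1.02 to 1.81). Microglia were at 48.3 and 27.2 CPM on 135 and 14 UMIs. Monocytes in transition were at 13 and 10.7 CPM, with an interval of 0.608 to 1.12, and early monocytes had too few UMIs (26 and 39) to count. An Lpl UMI was found in 30.4% of PBS macrophages with a Cd36 UMI and in 20.2% of those without. In ibudilast the shares were 12% (interval 4.53 to 24.3%, 50 cells) and 9.92% (8.38 to 11.6%).

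The receptor Trem2, on chromosome 17 (48346401 to 48354147, plus strand), was highest in microglia (980 and 986 CPM) and class II-low macrophages (688 and 697 CPM). Both pairs of levels differed by less than their counting intervals. Of the 9 gates of macrophages, microglia and monocytes, only Gdf15/Hmox1 macrophages lay above the upper fold for Trem2, at 379 and 588 CPM (ratio 1.55, draws 1.33 to 1.98). Of 11 genes of TREM2 signalling, such as the adaptor Tyrobp and the kinase Syk, none lay beyond either fold in all macrophages. Of all genes tested there, 9.18% lay above and 3.95% under. The median log2 ratio of the 11 was 0.07, against 0.03 over all genes. Gpnmb UMIs were found in 15.9% of PBS and 22.5% of ibudilast macrophages with a Trem2 UMI, against 4.22% and 7.60% of those without.

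Spp1, on chromosome 5 (104435118 to 104441050, plus strand), was at 2324 and 1891 CPM in class II-low macrophages (ratio 0.813, draws 0.535 to 0.813). It was at 1411 and 2420 CPM in Gdf15/Hmox1 macrophages (ratio 1.72, draws 1.26 to 3.08) and at 391 and 306 CPM in class II-high ones (ratio 0.781). An overlapping gene model on the same strand, Gm42793, is not listed in the matrices, so their shared reads are uncertain. Early monocytes were at 96.7 and 197 CPM (draws 1.05 to 2.18). Microglial ratios ran from 0.422 to 2.27 with the draw. Spp1 and Gpnmb therefore stood on opposite sides in class II-low macrophages in the first draw. Of the cells, 26.0% of ibudilast macrophages with a Spp1 UMI also had a Gpnmb UMI, against 8.39% of those without. T and NK cells held 226 and 156 CPM of Spp1. Of 6 tested osteopontin receptor genes none lay beyond the folds in all macrophages (9.18% of all genes above, 3.95% under), with Itga4 at 1.24 and Itgav at 0.834.

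In all macrophages together the export genes lay within the folds. Abca1, on chromosome 4 (53030787 to 53159895, minus strand), was highest in microglia in PBS (116 CPM, and 120 CPM in ibudilast). It lay above the upper fold in Arg1/Mmp12 (93.0 and 138 CPM, ratio 1.48) and Gdf15/Hmox1 macrophages (76.6 and 100.98 CPM, ratio 1.32, and 1.01 without the 5 highest cells of each library). So did early monocytes, at 8.88 and 13 CPM on 45 and 84 UMIs (ratio 1.46, draws 1.10 to 1.49). T and NK cells, as a measure of free RNA, held 4.80 and 8.90 CPM of Abca1. Abcg1, on chromosome 17 (31057675 to 31117988, plus strand), was at 123 and 100.8 CPM in class II-low macrophages (ratio 0.818) and at 101.5 and 112 CPM in early monocytes. In Arg1/Mmp12 macrophages its ratio was 1.30, with draws from 0.905 to 1.36, and from thinned values the ratios there were 0.975 for both exporters. Apoe, on chromosome 7 (19696109 to 19699188, minus strand), had ratios from 0.914 in cycling to 1.19 in class II-low macrophages. Among macrophage states the droplet coat gene Plin2, on chromosome 4 (86648386 to 86670060, minus strand), ran from 0.780 in cycling to 1.17 in class II-low ones. The cycling value was the lowest of the draws, which reached 1.06. In microglia the Plin2 ratio was 1.44, the highest of draws that went down to 0.804. Plin2 shares a stretch of 259 bases with 1 pseudogene that the matrices do not list. Among the gates of macrophages, microglia and monocytes in PBS it was, unlike Lpl, highest in early monocytes (398 CPM), ahead of Gdf15/Hmox1 (343) and Arg1/Mmp12 (341) macrophages.

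Counted by gate, members above the upper fold and under 0.8-fold were as follows, each beside the share of all genes tested there. Arg1/Mmp12 macrophages had 3 above (16.4% of genes) and 2 under (10.3%). Gdf15/Hmox1 macrophages had 5 above (15.0%) and 2 under (10.2%), and their median log2 ratio over the 10 genes was 0.31 against 0.03 over all genes. Cycling macrophages had 4 above (10.0%) and 1 under (10.8%). Of those above, Fabp5, Spp1 and Cd36 were at 0.952, 1.05 and 1.17 without the 5 highest cells of each library, and Gpnmb at 1.39. The counts are those of the first draw, and over the draws Fabp5 and Spp1 went down to 0.783 and 0.395 in cycling cells. Cxcl9/Cxcl10 macrophages had 1 above (8.97%) and 2 under (6.94%), class II-high ones 0 above (8.86%) and 3 under (7.05%), and class II-low ones 2 above (8.92%) and 2 under (9.71%).

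Microglia had 2 above (12.8%) and 4 under (17.6%). Monocytes in transition had 2 above (8.12%) and 1 under (6.52%), and early monocytes 3 above (7.88%) and 1 under (7.54%) of 9 genes with enough UMIs. T and NK cells had 5 above (8.11%) and 2 under (5.4%) of 9 as well. Fabp5, counted above in monocytes in transition, passed the upper fold there in 3 of 10 draws. TMM scaling moved ratios in Arg1/Mmp12 macrophages by -0.10 on the log2 scale, and by less in the other gates.

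Other lipid genes were counted in lists, which were chosen with earlier results of these libraries known. Of 16 genes of cholesterol synthesis, targets of SREBP2, 0 lay above the upper fold and 4 under 0.8-fold in all macrophages, beside 9.18% and 3.95% of all genes tested, with a median log2 ratio of -0.23 against 0.03 over all genes. Dhcr7, which acts in the last steps of the pathway, had a ratio of 0.745 (interval 0.653 to 0.848). Srebf2 and Fdps, at 0.975 and 0.961, were the highest. In monocytes in transition 7 of 15 tested genes lay under 0.8-fold (6.52% of all genes there) and the median was -0.31. In early monocytes 1 of 13 lay above (7.88% of all genes), 0 lay under (7.54%), and the median was -0.02.

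Of 11 tested LXR targets and receptors 4 lay above the upper fold (9.18% of all genes) and 0 under (3.95%). The list leaves out the LXR-controlled exporters Abca1 (1.14) and Abcg1 (0.997), which are members and lay within the folds. The lowest ratios in the list were those of Scd2 (0.938) and Srebf1 (0.952). The highest were the apolipoproteins Apoc1 (8.88 and 15.8 CPM, ratio 1.78) and Apoc2 (2.40 and 4.21 CPM, ratio 1.75), the latter the activator of lipoprotein lipase. Both also stand in the list of LPL partners and regulators, where 3 of 8 tested genes lay above (9.18% of all genes) and 0 under (3.95%). Lmf1, which matures the lipase, was at 15.8 and 14.0 CPM (interval of the ratio 0.771 to 1.02). Gpihbp1, Angptl8 and Vldlr were among the genes with too few UMIs.

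Beside 9.18% of all genes above and 3.95% under, 1 of 9 tested scavenger and lipoprotein receptors lay above, Lrp1 (75.6 and 95.3 CPM, ratio 1.26), and 2 under, Colec12 (0.628, on 48 UMIs in ibudilast) and Scarb1 (0.775). Among 3 tested fatty acid binding proteins 2 lay above: Fabp7, a protein also made by glial cells, at 1.42 and 4.27 CPM (ratio 3.00), and Fabp4 at 2.06 and 2.88 CPM with an interval of 0.994 to 1.94. The summed level of non-immune markers in macrophages was 27.4 CPM in PBS and 57.7 in ibudilast, and its part in the Fabp7 value was not tested. Of 10 PPAR targets and receptors 1 lay above and 1 under, the nuclear receptor Rxra (0.770), with the members left out here too.

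Gpnmb resides in lysosomes and related vesicles. Of 14 genes of lysosomal lipid breakdown and export none lay beyond the folds (9.18% of all genes above, 3.95% under), with Psap lowest (0.862). Of 12 tested MiT-TFE factors, which drive lysosomal genes, and their targets 0 lay above (9.18% of all genes) and 2 under (3.95%): Tfec (0.699) and Atp6v0d2 (0.637, on 39 UMIs in ibudilast). Of 11 genes for droplet enzymes and coats 0 lay above (9.18% of all genes) and 1 under (3.95%), Dgat2 (0.747), a triglyceride-forming enzyme.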

How the data were processed

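The values are raw counts of UMIs per gene and barcode, deposited as the authors' Cell Ranger output. The file headers give its version as 6.1.1, and the submitters' processing notes give the build as mm10. The 3' chemistry counts transcript ends, so levels are compared between cells and not between genes. Barcodes needed 300 genes, 500 UMIs and a mitochondrial share below 10%. Gates were read from marker UMIs after each cell was thinned to 2000 UMIs. 356 PBS and 609 ibudilast cells were shallower, and 1758 and 1937 fell in no gate. Macrophages needed at least 10 macrophage marker UMIs, and cells with T, NK or other lineage markers were left out as mixed. Scrublet in scanpy 1.11.5 marked 0 cells by its automatic threshold, so leaving out the 6% of cells with the highest scores (487 and 412) served as an alternative.

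Levels are UMIs of a gene per 1000000 UMIs of the gate (CPM), from all UMIs of its cells. Intervals at 95% are exact Poisson for levels, Clopper-Pearson for shares and conditional binomial for ratios, and cover counting error only. Samples were grouped by their treatment labels, and with 1 library per group no test was made. Genes with at least 100 UMIs over both libraries were counted when under 0.8-fold or above its inverse. The counting steps were tested on simulated Poisson counts. Those hold no spread between cells, no gating and no thinning, so the test does not cover these. TMM factors came from edgeR 4.0.16. Similar transcripts were found with BLAST 2.17.0 in GENCODE M21.

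The 10 genes, the lists and their tests were chosen with earlier results of these data known, and the gate limits after the marker scores were seen. All 10 genes could be named in every gate, and the values that carry the differences are printed. A few marker and list genes are not reported here by name. From each list the 2 highest and 2 lowest ratios could be named, as could the 5 genes most like Lpl, Gpnmb and Fabp5 over the gates. Further alternatives (9 other draws, gates without thinning, leaving out the 5 cells with most UMIs, subtracting the T and NK cell level, and class II bins) were added after seeing the data.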

Additional observations from a re-analysis of the deposited data

How the results depend on the processing

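No paired analysis was possible because each treatment has 1 library. Over 15 alternatives in all macrophages, Lpl lay between 0.411 and 0.527 and Cd36 between 0.592 and 0.695, under 0.8-fold in all 15. Gpnmb (1.23 to 2.31) and Fabp5 (1.16 to 1.95) were above the inverse of 0.8-fold in 14 and within it with class II bins weighted as in PBS. Spp1 ran from 0.793 to 1.35, above the folds in 3 and under in 1, Abca1 reached 1.28 and Abcg1 0.734, each in 1, and Apoe, Trem2 and Plin2 stayed within the folds. Lpl, Fabp5 and Gpnmb were 0.411, 1.83 and 2.29 with values from thinned cells, 0.461, 1.81 and 2.20 with each cell weighted alike, 0.514, 1.95 and 2.31 in clusters made without the 10 genes, 0.527, 1.42 and 1.67 with states weighted alike, and at least 0.452, 1.52 and 1.68 over the other draws. Gates from 1000 UMIs gave Lpl 0.453 and Fabp5 1.67, and leaving out the 5 highest cells Lpl 0.458 and Fabp5 1.43. Fabp5 was 1.51 with TMM scaling and reached 1.63 over the draws. With the T and NK cell level subtracted, Fabp5 was 1.87 and Gpnmb 1.56, and with class II bins weighted as in PBS 1.16 and 1.23. T and NK cells held 150 and 179 CPM of Fabp5, and whether that is free RNA or their own was not tested. The clusters gave no Arg1/Mmp12, Gdf15/Hmox1 or microglia class. With at least 20 UMIs, 1841 genes lay above and 839 under the folds, against 992 and 427.

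Shares of macrophages moved with gates from 1000 UMIs: in PBS to 9.16% (Arg1/Mmp12), 12.5% (Gdf15/Hmox1), 4.61% (cycling), 20.4% (Cxcl9/Cxcl10) and 40.5% (class II-high), and in ibudilast to 6.25% (Arg1/Mmp12), 14.2% (Gdf15/Hmox1), 17.5% (Cxcl9/Cxcl10) and 19.4% (class II-low). The stricter cell filter gave 46.5% class II-high and 11.5% class II-low in PBS. Other draws reached 7.75% (PBS) and 9.96% (ibudilast) for Gdf15/Hmox1 and 25.4% for Cxcl9/Cxcl10 in PBS.

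Ratios within gates changed side, and the cause was not tested. Over the other draws they reached 0.783 (Fabp5), 0.395 (Spp1) and 1.06 (Plin2) in cycling macrophages, 0.863 (Gpnmb) in class II-low ones, 0.905 (Abcg1) in Arg1/Mmp12 ones, 0.94 (Gpnmb) in early monocytes, and 2.14 (Fabp5), 2.27 (Spp1) and 0.804 (Plin2) in microglia. Without the 5 highest cells Fabp5 was 0.952 in cycling macrophages, and Gpnmb 0.662 and Plin2 0.991 in microglia. Microglial values were 1.01 (Fabp5), 1.31 (Spp1) and 0.860 (Plin2) with gates from 1000 UMIs, and 1.27 (Fabp5) and 2.44 (Spp1) with gates scaled without thinning. Thinned values were 0.910 (Spp1, cycling), 1.03 (Spp1, class II-high), 1.07 (Spp1, microglia) and 0.975 for Abca1 and for Abcg1 in Arg1/Mmp12 macrophages. Spp1 in cycling macrophages was 0.824 by clusters and 0.915 with each cell weighted alike.

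The 39 ibudilast microglia and their 33 Lpl and 14 Cd36 UMIs limit every microglial ratio.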

Other observations

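Outside macrophages, dendritic cells held most Fabp5 of the 13 gates in both libraries, at 2059 CPM in PBS and 2230 CPM in ibudilast (ratio 1.08, interval 1.04 to 1.13). They held little Lpl (23 and 5 UMIs) and Gpnmb (25 and 35 UMIs). Cd36 was at 27.4 and 15.5 CPM in them, on 58 and 34 UMIs. In neutrophils Fabp5 was at 272 CPM in PBS and 1674 CPM in ibudilast, where 5 of 29 cells held 96.3% of its UMIs. Gpnmb UMIs in neutrophils (3 and 46) all came from at most 5 cells in each library.

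Over 26 points (13 gates in 2 libraries, which share their libraries and depth), the levels of 9455 genes were compared with those of the 3 leading genes, as a description. Pearson's r of log2(CPM + 1) with Lpl was highest for Pf4 (0.92, itself a gate marker), Lilra5 (0.92), Rab3il1 (0.91), Camk1 (0.91) and Fblim1 (0.91). Of these, Lilra5 had a ratio of 0.721 (interval 0.666 to 0.779) in all macrophages and Pf4 of 1.04. With Gpnmb r was highest for Slc6a8 (0.83), Cerk (0.83), Fam20c (0.80), Lrp1 (0.80) and Syngr1 (0.79), and Syngr1 was at 74.8 and 121 CPM (ratio 1.61). With Fabp5 it was highest for Plekhm2 (0.83), Pfkfb3 (0.82), Gpr157 (0.78), Agap1 (0.78) and Exoc3l4 (0.77), whose ratios lay between 0.906 and 1.05.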
